A study of Saccharomyces cerevisiae with 8 samples.

Results

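Of the 5753 open reading frame transcripts (ORF-Ts) in the deposited table, 889 (15.5%) have their 5′ end strictly inside a Nrd1-unterminated transcript (NUT) annotated on the opposite strand. They were defined by coordinates alone, with the lower coordinate taken as the 5′ end on the plus strand and the higher one on the minus strand. This set was chosen with earlier results of these data known. A further 402 ORF-Ts overlapped an opposite NUT only elsewhere, and 4462 overlapped none. The 750 NUTs that cross these 5′ ends are part of 1291 NUTs, in a table of 10054 transcripts. The study prepared 4 libraries from wild-type (WT) budding yeast and 4 from a strain deleted for *RRP6* (*rrp6Δ*), each from total RNA without rRNA, in a way that keeps the strand of each read. All strains share the BY4741 background, the *rrp6Δ* strain carries the whole-gene deletion of the yeast knockout collection, and cells of both strains were harvested in growth at the same culture density. The 4 libraries of each strain are described as biological replicates, and no second deletion clone was part of the comparison.

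RNA polymerase II is released from short noncoding transcripts of budding yeast by the Nrd1-Nab3-Sen1 (NNS) complex, whose RNA-binding subunits Nrd1 and Nab3 recognise short motifs in the nascent RNA. NUTs are transcripts that lengthen or appear when Nrd1 is removed from the nucleus. Rrp6 is the 3′ to 5′ exonuclease that belongs to the nuclear form of the exosome and trims or degrades NNS-terminated RNAs. Transcription that runs through a promoter, from either direction, is known to be able to lower initiation there, which is called transcription interference.

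The motifs of the terminator proteins were read on the NUT strand around the crossed 5′ ends, from 250 bases upstream to 50 bases downstream of each. The Nrd1 motifs searched were GTAA and GTAG, and the Nab3 motifs were TCTT and CTTG. An overlap of the last pair (TCTTG) counts as 2. The following windows of 30 bases are those with the most motif matches at 6 loci to which the results return. They are written 5′ to 3′ on the NUT strand from the RefSeq sequence of sacCer3, with motifs in capitals.
*LIN1*, chrVIII:412432-412461, plus strand, straddling the ORF-T 5′ end with no coding base: CTTGagtgtttttatcaaagttttccCTTG
*CMC4*, chrXIII:652929-652958, plus strand, upstream of the ORF-T: gctcaataTCTTGgaaaaaaagaacaGTAA
*EFM3*, chrX:665016-665045, plus strand, across the start of the coding sequence: tcatgttaTCTTtgacgaggagggtcaagt
*FMP40*, chrXVI:130059-130088, minus strand, in the 5′ untranslated part: cCTTGatggcTCTTtttatgcaggcagaat
*GYP5*, chrXVI:79359-79388, plus strand, straddling the ORF-T 5′ end with no coding base: tattaacgttctactttacactggtgGTAG
*PHO5*, chrII:430943-430972, plus strand, across the start of the coding sequence: tttaaacattgGTAAtctcgaatttgCTTG

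Over the 889 crossed 5′ ends, the window held on average 2.23 Nrd1 and 4.15 Nab3 motifs on the NUT strand. The corresponding averages were 2.28 and 3.70 in the ORF-Ts without an opposite NUT. They were 2.26 and 3.95 in those with a NUT elsewhere, and 2.27 and 3.79 over all ORF-Ts. At least 1 Nab3 motif was present on that strand in 96.4% of crossed windows and in 95.6% of the windows of all ORF-Ts. At least 1 Nrd1 motif was present in 89.0% and 88.8%. On the ORF-T's own strand the crossed windows held 3.50 Nab3 motifs and those of all ORF-Ts 3.53, and at least 1 was present in 93.1% and 94.1%. At least 1 Nrd1 motif was present on that strand in 92.0% of crossed windows and 89.4% of all. The windows were alike in base composition, with 63.3% A and T at crossed 5′ ends and 63.6% over all ORF-Ts. A match is a match of letters only, and NUTs were annotated by their response to Nrd1.

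Total counts lay between 6904004 and 12666126 per library. *RRP6*, the deleted gene, had 1787, 1030, 754 and 660 counts in WT libraries 1 to 4. It had 60, 31, 42 and 16 counts in the *rrp6Δ* libraries, so each library went with its label (log2 fold change -5.37, standard error 0.29, FDR = 2.24e-06 by edgeR's quasi-likelihood model after Benjamini-Hochberg adjustment). Normalized counts are CPM values, relative to the library total scaled by edgeR's TMM factor over all transcripts. A transcript was called at a fold change of at least 1.5, p under 0.05 and a Benjamini-Hochberg false discovery rate (FDR) of 0.1 or less over all 10054 transcripts. Over all ORF-Ts the median log2 fold change was -0.32, and it became -0.01 with TMM factors from ORF-Ts only, a shift of 0.31.

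Among the crossed ORF-Ts, 162 fell (18.2%) and 7 rose (0.787%) in *rrp6Δ*, against 14.3% and 2.09% of all ORF-Ts. Of the ORF-Ts with a NUT elsewhere 60 fell (14.9%), and of those without one 598 fell (13.4%). The median log2 fold change was -0.39 at crossed 5′ ends, -0.30 with a NUT elsewhere and -0.31 without an opposite NUT. The middle of the crossed distribution, between the lower and upper quartile, reached from -0.61 to -0.17. All 4 *rrp6Δ* libraries lay below all 4 WT libraries for 146 crossed ORF-Ts (16.4%, against 13.8% of all ORF-Ts), and above them for 6 (0.675%, against 1.63%). Both criteria held together for 91 falls and 5 rises. No filter on low counts was applied, so all 889 entered these counts. In RNA from whole cultures, fewer cells that express a gene and less of its RNA per cell cannot be told apart.

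The balance of falls and rises depended on the scaling, while the crossed ORF-Ts had the lowest median of the 3 groups in each scaling run. With TMM factors from ORF-Ts only, 32 crossed ORF-Ts fell and 23 rose, so that 58.2% of the calls were falls against 95.9% above. The same scaling called 2.59% of all ORF-Ts down and 3.93% up. With library totals alone, 20 fell and 19 rose (51.3% falls), where 1.48% of all ORF-Ts were called down and 3.86% up. The 32 and the 20 falls were all among the 162. With the replicate number as a block, 222 crossed ORF-Ts fell (25%) and 11 rose, where 19.4% of all ORF-Ts fell and 2.62% rose. DESeq2 called 165 down and 8 up, where it called 14.2% of all ORF-Ts down and 2.21% up. The median of the crossed ORF-Ts lay 0.08 below that of the ORF-Ts without an opposite NUT under all-transcript TMM, 0.08 below with TMM from ORF-Ts only and 0.09 below with library totals. Without *rrp6Δ* library 1 the number of crossed ORF-Ts that fell was 87, and without WT library 4 it was 98 while 15 rose.

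The shift was small in each library. As the median deviation of each group's ORF-Ts from their own mean, on a log2(normalized count + 0.5) scale, the crossed ORF-Ts had 0.19, 0.13, 0.13 and 0.25 in WT libraries 1 to 4. They had -0.16, -0.28, -0.22 and -0.05 in the *rrp6Δ* libraries. After subtraction of the median of the ORF-Ts without an opposite NUT in the same library, the values were 0.031, 0.019, 0.007 and 0.069 in WT and -0.020, -0.058, -0.055 and 0.002 in *rrp6Δ*. The strains did not overlap in this difference, which was lower in every *rrp6Δ* library than in any WT library. WT library 4 and *rrp6Δ* library 4 gave the highest values of their strain.

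**Figure D1:**
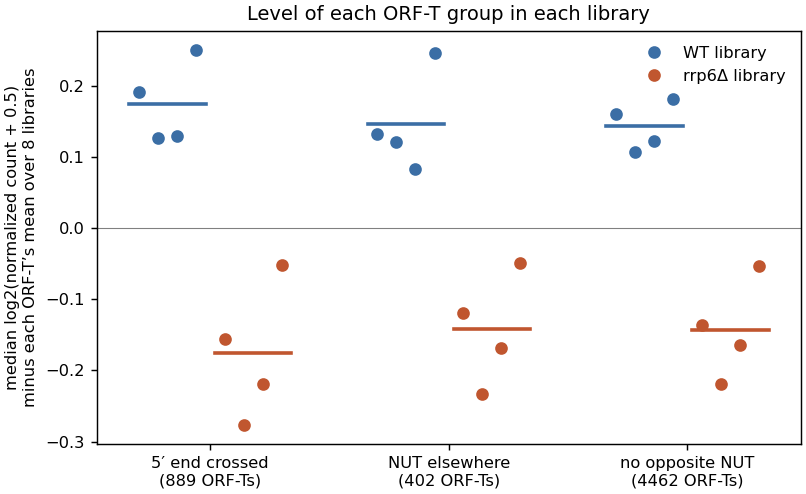
The y axis gives the median deviation of the ORF-Ts of a group from their own mean over 8 libraries, on the log2(normalized count + 0.5) scale, for each library (points) and as the mean of 4 libraries (bars). The crossed ORF-Ts lay between 0.13 and 0.25 in WT and between -0.28 and -0.05 in *rrp6Δ*, a slightly wider separation than in the other groups.

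Under all-transcript TMM, transcripts of ribosomal proteins fell in most cases (101 of 120 without an opposite NUT). They were unevenly spread over the groups. They made up 3 of the crossed ORF-Ts, 15 of those with a NUT elsewhere and 120 of those without an opposite NUT. Without them, 18.1% of the crossed ORF-Ts fell, 12.1% of those with a NUT elsewhere and 11.4% of those without. With TMM from ORF-Ts only, these shares were 3.61%, 1.55% and 1.75%. With library totals alone they were 2.26%, 1.29% and 0.967%. The shares by level below are again under all-transcript TMM. Crossed ORF-Ts also had a lower level, with a median of 18.1 normalized counts per kb in WT against 23.3 without an opposite NUT. They were shorter, with medians of 1237 and 1424 bases. In the lowest quartile of all ORF-Ts by level per kb, 22.3% of 269 crossed ORF-Ts fell and 13.3% of 1062 without an opposite NUT. The next quartiles gave 16.6% against 11% and 17.3% against 9.15%. In the highest quartile the order turned, with 15% of 153 crossed ORF-Ts against 19.7% of 1200, or 12.8% of 1085 once ribosomal protein transcripts were left out. Of the ORF-Ts with a NUT elsewhere, 15.7%, 6.31% and 12.2% fell in the lower quartiles. In the highest it was 28.2% of 85, the largest share there, with ribosomal protein transcripts not left out. The part of level and length in the difference between the groups was not tested.

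**Figure D2:**
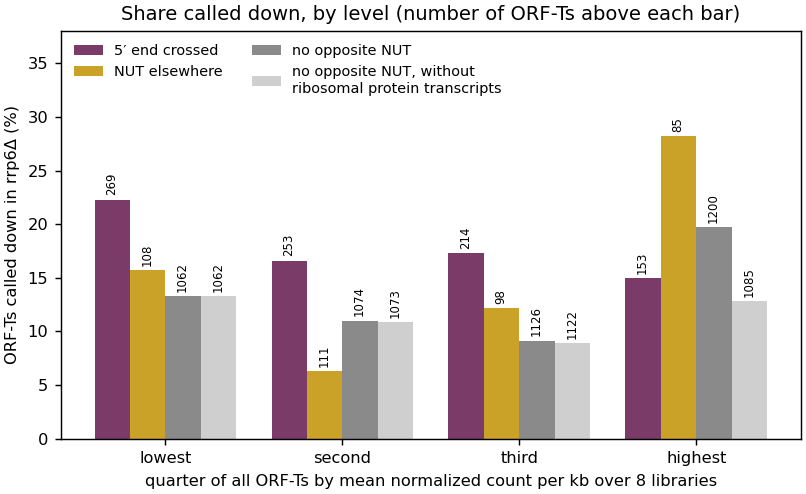
The y axis gives the percentage of ORF-Ts called down in *rrp6Δ* within each quartile of all ORF-Ts by mean normalized count per kb over 8 libraries, and the number above a bar is the number of ORF-Ts. The crossed ORF-Ts had the highest share in the lowest quartile (22.3%), and not in the highest (15%).

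The crossing NUTs themselves rose in most cases. They are not all separate cases, since 127 NUTs cross 2 or more ORF-Ts and 267 of the 889 ORF-Ts share their NUT with another. Of the 750, 538 rose (71.7%, against 64.7% of all NUTs) and 5 fell, with a median log2 fold change of 1.40. Many NUT annotations run along another gene on their own strand and then hold its reads. The 601 crossing NUTs that overlap no ORF-T or sn/snoRNA on their strand rose in 463 cases (77.0%). They lay over 719 crossed ORF-Ts. Their level per kb was a median of 3.90% of that of the crossed ORF-T in WT and 16.4% in *rrp6Δ*. In all 4 WT libraries 11 of the 719 ORF-Ts had fewer normalized counts per kb than their NUT, and in all 4 *rrp6Δ* libraries 62 had.

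The size of the NUT's change and that of the crossed ORF-T's change were close to uncorrelated. Across these 719 pairs, which share libraries and in part a NUT, Pearson's r of the log2 fold changes was 0.048 and Spearman's rho 0.024. Where the NUT's log2 fold change was below 1, 38 of 187 ORF-Ts fell (20.3%). Between 1 and 2, 53 of 341 fell (15.5%). Between 2 and 3, 26 of 166 fell (15.7%), and at 3 or more 4 of 25 fell (16%). Over all 889, 109 of the 636 ORF-Ts under a NUT that rose fell (17.1%), as did 51 of the 247 under a NUT that was not called (20.6%).

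**Figure D3:**
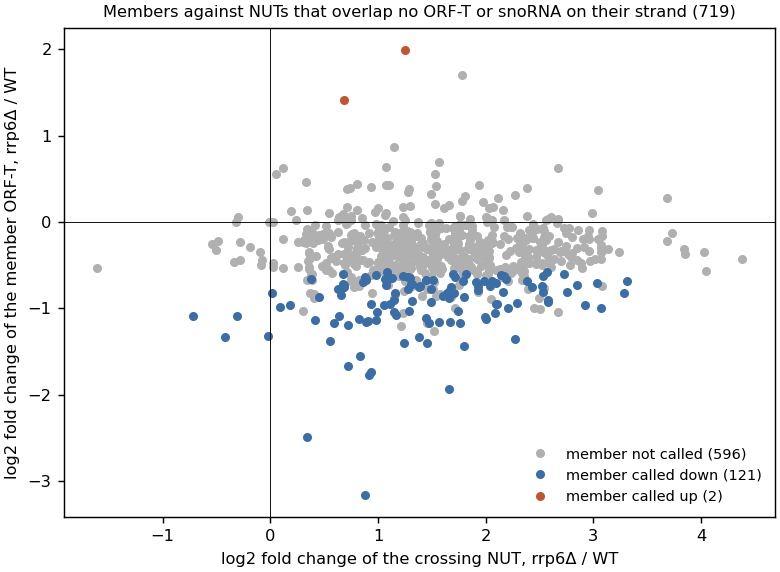
Each point is 1 of 719 crossed ORF-Ts, with the log2 fold change of its NUT on the x axis and its own on the y axis, both as *rrp6Δ* over WT. The 121 ORF-Ts that fell lie under NUTs with small and with large changes, and 2 rose.

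The geometry of the crossing was also examined, where 18.2% of all crossed ORF-Ts and 14.3% of all ORF-Ts fell. In 407 cases the NUT began at or beyond the 3′ end of the ORF-T and so spanned all of it, and 75 of these ORF-Ts fell (18.4%). In 458 cases it began inside the ORF-T, and 87 of these fell (19.0%). In 24 cases it began within 200 bases of the 5′ end, a divergent arrangement, and 0 of these were called down by the edgeR test without the block or by DESeq2, which called 1 and 2 up. With the replicate number as a block, 2 were called down and 3 up. At an unadjusted edgeR p under 0.05, 5 of the 24 were lower and 1 was higher. The NUT ran past the 5′ end by a median of 289 bases (lower quartile 131, upper quartile 924, range 1 to 5670). Of the ORF-Ts passed by up to 200 bases 54 of 349 fell (15.5%). From 200 to 500 bases the count was 46 of 208 (22.1%), from 500 to 1000 it was 26 of 120 (21.7%), and beyond 1000 it was 36 of 212 (17.0%). At the edge of the definition, 3 of 35 ORF-Ts passed by at most 20 bases fell (median log2 fold change -0.47). Of 30 ORF-Ts whose overlapping NUT stopped within 20 bases short of the 5′ end, 6 fell (median -0.41).

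Other unstable transcripts often lay over the same 5′ ends. A cryptic unstable transcript (CUT), which the nuclear exosome degrades, crossed 86 of the 889 from the same side, and 18 of these fell (20.9%). A stable unannotated transcript (SUT) crossed 95, of which 19 fell (20%). These shares stand beside 18.2% of all crossed ORF-Ts and 14.3% of all ORF-Ts. Among ORF-Ts not crossed by a NUT, 2 of 26 with the 5′ end in an opposite CUT fell (7.69%). With the 5′ end in an opposite SUT, 14 of 120 of them fell (11.7%). With no CUT, SUT or extended snoRNA transcript over the 5′ end, 122 of 702 crossed ORF-Ts fell (17.4%). An antisense transcript of the table's own class was listed for 412 of the crossed ORF-Ts (46.3%), against 23.4% with a NUT elsewhere and 10.6% without. Those antisense transcripts had been kept for changing in these libraries, so this share is not independent of the NUTs' rise.

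Another set of 8 crossed ORF-Ts comprised those whose 5′ end also lay in an extended transcript (ET), the annotation of reads beyond the mature 3′ end of an sn/snoRNA. Of these, 5 fell and 1 rose, where 18.2% of all crossed ORF-Ts and 14.3% of all ORF-Ts fell, and their median log2 fold change was -1.13. Outside the crossed ORF-Ts, 3 had their 5′ end in an opposite ET, and 1 of these fell. The ETs over the 8 crossed ORF-Ts all rose, with log2 fold changes between 1.37 and 4.11. The ends of ETs had been drawn from these same libraries, so the ETs were not annotated independently of the reads in *rrp6Δ*. The crossing NUTs of these 8 overlap an sn/snoRNA or an ORF-T on their own strand, and none of them was called up. Those over *LIN1* and *CAF20* were called down, with log2 fold changes of -0.80 and -0.74.

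*LIN1* (YHR156C, chrVIII:411357-412438, minus strand) encodes a component of the U5 snRNP and faces the snoRNA gene *SNR71*. It had 4.48, 7.79, 6.07 and 8.85 normalized counts in WT libraries 1 to 4 and 1.22, 2.08, 1.06 and 2.20 in *rrp6Δ*. The strains did not overlap, and the level was 4.17-fold lower in *rrp6Δ* (log2 fold change -2.06, standard error 0.35, FDR = 0.00129, edgeR with Benjamini-Hochberg adjustment). Its ET, which begins at the mature snoRNA inside *LIN1* and runs 551 bases past the 5′ end, had 51, 35, 27 and 30 counts in WT against 306, 330, 474 and 305 in *rrp6Δ*. The window of *LIN1* printed above, with 2 Nab3 motifs, lies inside this ET. On the NUT strand beyond the *LIN1* 5′ end lies *REC104*, a meiotic recombination gene, which was called up with a log2 fold change of 1.09 and is named here after its value was seen. The ET overlaps the 5′ part of *REC104* on the same strand, so its reads are counted there as well. The study states that reads at *REC104* cannot be assigned with certainty to the gene or to a longer *SNR71* transcript.

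*CMC4* (YMR194C-B, chrXIII:652325-652913, minus strand) encodes a protein of the mitochondrial intermembrane space and faces *SNR11*. It had 3.64, 5.78, 3.55 and 7.71 normalized counts in WT and 1.89, 1.77, 1.13 and 3.16 in *rrp6Δ*. The groups did not overlap, though the highest *rrp6Δ* library came close to the lowest WT library (log2 fold change -1.38, standard error 0.39, FDR = 0.0178, edgeR with Benjamini-Hochberg adjustment). The ET of *SNR11* had 291, 339, 364 and 128 counts in WT against 7933, 6380, 8422 and 6494 in *rrp6Δ*, and its annotation ran 1122 bases past the *CMC4* 5′ end. In the study's northern blot a probe for the mature snoRNA showed no long read-through RNA in any strain. The study proposes that the RNA annotated here likely starts downstream of the probed sequence. Its RNA polymerase II signal did reach farther 3′ in *rrp6Δ*, over the *CMC4* 5′ end. The short ORF-T YMR194C-A, which overlaps *CMC4* by a few bases, lies under the same ET and NUT. It had 39, 13, 8 and 14 counts in WT against 10, 7, 11 and 16 in *rrp6Δ*, so the strains overlapped in raw and normalized counts (log2 fold change -1.18, edgeR FDR = 0.0585). Without WT library 1 its log2 fold change was -0.77 with an edgeR FDR of 0.246. It also lost its call without *rrp6Δ* library 1, 2 or 3, and it was not called with TMM from ORF-Ts only (edgeR FDR = 0.174).

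*CUE5*, a ubiquitin-binding adaptor of selective autophagy, lies under the ET of *SNR62*. It had 45.8, 32.1, 38.9 and 52.1 normalized counts in WT and 18.7, 13.6, 11.3 and 25.9 in *rrp6Δ*, without overlap (log2 fold change -1.28, standard error 0.27). *SER1*, phosphoserine aminotransferase of serine synthesis, lies under the ET of *SNR36* and had 406, 323, 445 and 283 normalized counts in WT. In *rrp6Δ* it had 129, 155, 161 and 241, again without overlap (log2 fold change -1.08, standard error 0.24). *CAF20*, a translational regulator that binds the cap-binding factor eIF4E, did not reach the fold change of 1.5 under the ET of *SNR31* (log2 fold change -0.54, standard error 0.19). Its WT libraries had 133, 163, 167 and 113 normalized counts and its *rrp6Δ* libraries 83.2, 103, 97.5 and 111, so the strains came close without overlap. *STE23*, a protease of a-factor maturation, overlapped between strains under the ET of *SNR34* (log2 fold change -0.15). YOL097W-A, under the ET of *SNR58*, was called up, with 4.31, 6.41, 2.81 and 2.71 normalized counts in WT and 7.99, 13.4, 11.7 and 8.33 in *rrp6Δ*. It overlaps a CUT, a NUT and an antisense transcript on its own strand, whose reads are counted on it as well.

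**Figure D4:**
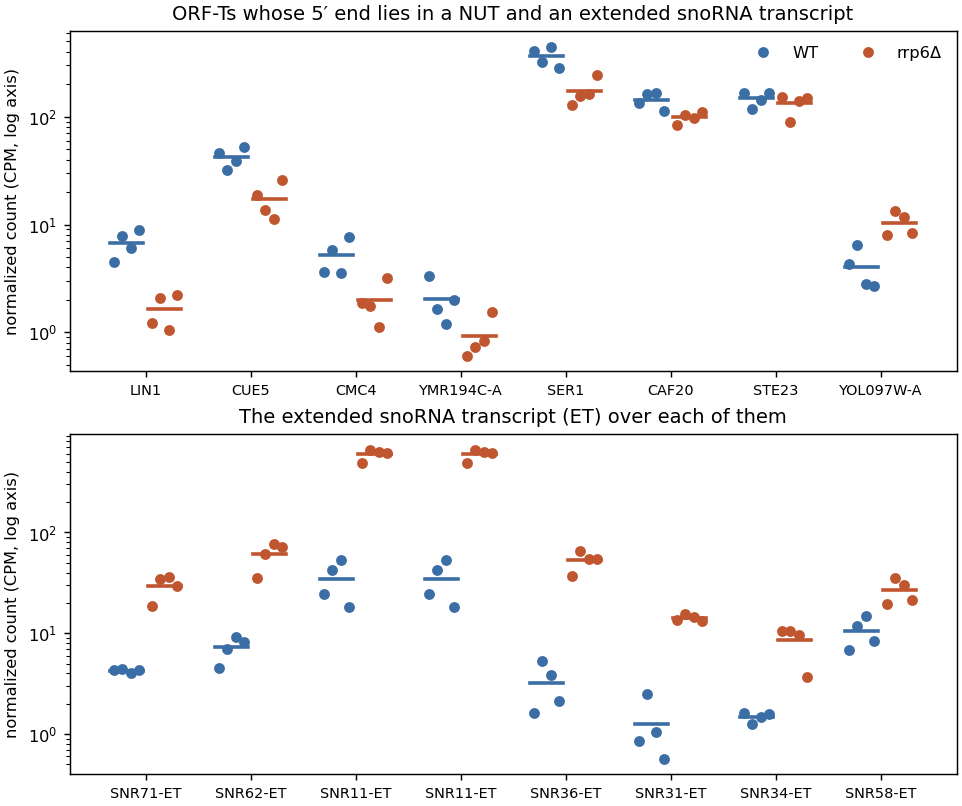
Normalized counts (CPM, log axis) of the 8 ORF-Ts under an ET (upper panel) and of that ET (lower panel) in each library (points), with the mean of 4 libraries (bars). The ETs were higher in *rrp6Δ* in every case, *LIN1*, *CUE5*, *CMC4*, *SER1* and *CAF20* were lower without overlap of the strains, and YMR194C-A and *STE23* overlapped.

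*EFM3* (YJR129C, chrX:663680-665065, minus strand) encodes a lysine methyltransferase of translation elongation factor 2 and faces *SNR3*. Here the annotated ET stops 11 bases inside the ORF-T, short of its 5′ end, while the NUT runs 2036 bases past it. The end of the annotation is not the end of the RNA, since the study left a further stretch unannotated for its low abundance. Its northern blot also showed a *SNR3* RNA in *rrp6Δ* of about the length expected for this NUT. *EFM3* had 2.96, 2.64, 2.81 and 3.43 normalized counts in WT and 0.854, 0.831, 0.982 and 1.72 in *rrp6Δ*. The strains did not overlap, and *rrp6Δ* library 4 stood above the other libraries of that strain (log2 fold change -1.43, standard error 0.34, FDR = 0.00784, edgeR with Benjamini-Hochberg adjustment). The *SNR3* ET rose from 150, 246, 224 and 93 counts in WT to 9742, 4721, 13250 and 6873 in *rrp6Δ*. The NUT at this locus overlaps the mature *SNR3* RNA, and its log2 fold change of 0.03 lay close to that of the mature RNA (-0.32, edgeR FDR = 0.462).

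At *FMP40* (YPL222W, chrXVI:130039-132302, plus strand), a mitochondrial protein AMPylase, the NUT runs 1638 bases past the 5′ end. The NUT had 120, 117, 82 and 60 counts in WT against 1191, 909, 997 and 685 in *rrp6Δ*. The antisense transcript listed for the gene had 70, 80, 65 and 29 counts in WT against 1064, 798, 917 and 623 in *rrp6Δ* (log2 fold change 3.22). *FMP40* itself had 54.1, 42.5, 34.2 and 50.7 normalized counts in WT and 33.6, 31.3, 24.5 and 36.0 in *rrp6Δ*. WT library 3 lay below the highest *rrp6Δ* library, and the difference did not reach a fold change of 1.5 (log2 fold change -0.53, standard error 0.21, FDR = 0.0681, edgeR with Benjamini-Hochberg adjustment). Without WT library 3 it passed, at a log2 fold change of -0.65, but it passed in no other alternative. Scaled by library totals it shrank to -0.20 (edgeR FDR = 0.773), and TMM factors restricted to ORF-Ts gave -0.22 (edgeR FDR = 0.504). It was -0.32 with at least 10 counts in every library and -0.40 without WT library 1 or 4. Slightly larger values came without WT library 2 (-0.57) or *rrp6Δ* library 4 (-0.56).

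**Figure D5:**
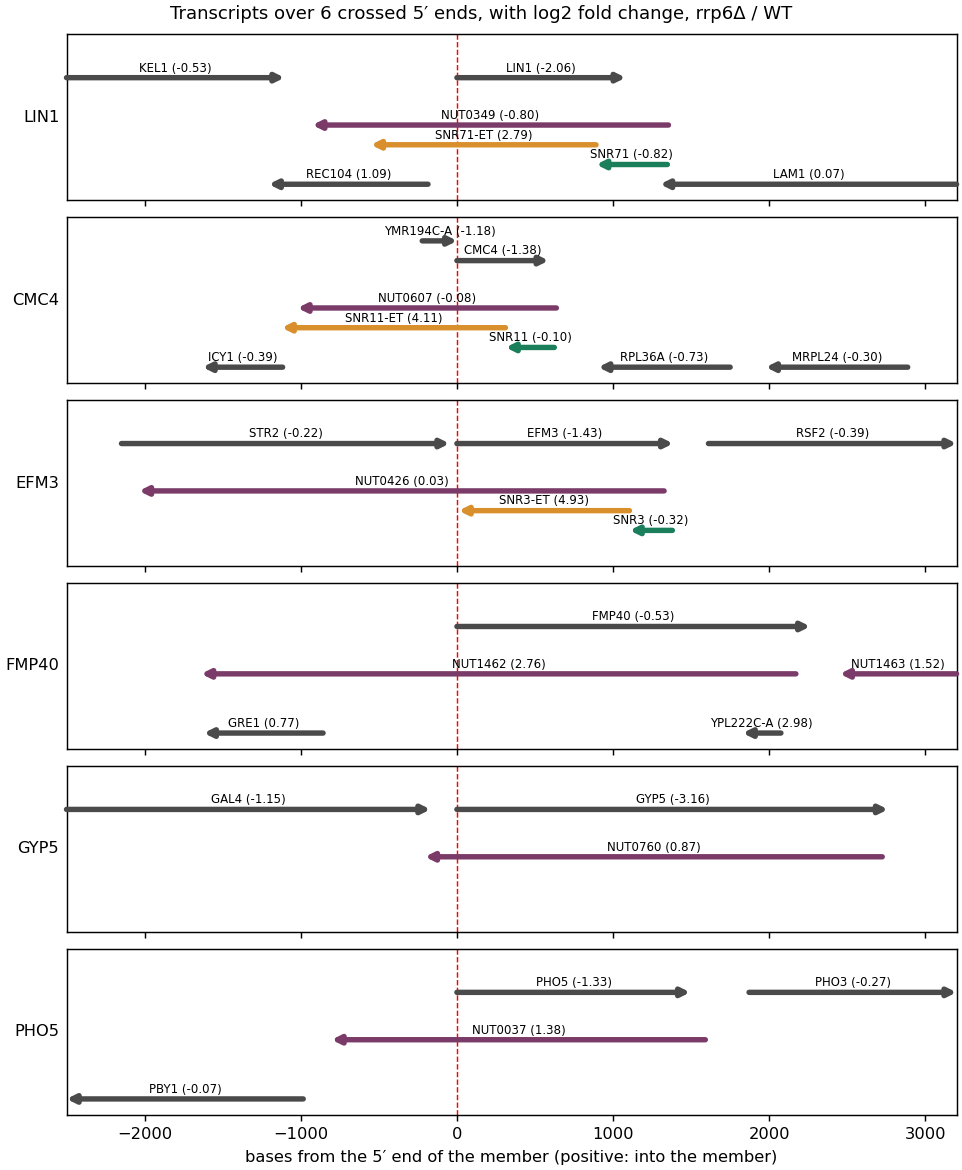
Transcripts at 6 loci as arrows in their direction of transcription against the distance in bases from the crossed 5′ end (dashed line), with the log2 fold change of each in brackets. ORF-Ts are grey, NUTs purple, ETs orange and mature sn/snoRNAs green, while NUTs on the strand of the ORF-T and other classes are not drawn. As annotated, the ETs of *SNR71* and *SNR11* pass the line, and that of *SNR3* stops 11 bases before it.

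The 10 largest falls without overlap of the strains included *LIN1*, *EFM3* and *CMC4*, and 7 loci without an sn/snoRNA. The largest was *GYP5* (YPL249C, chrXVI:76619-79380, minus strand), a GTPase-activating protein for the Rab protein Ypt1 in transport from the endoplasmic reticulum to the Golgi. It had 24.96, 14.7, 20.7 and 53.7 normalized counts in WT and 3.78, 2.49, 1.59 and 4.88 in *rrp6Δ*. Even the lowest WT library was well above the highest *rrp6Δ* library, and the level was 8.92-fold lower (log2 fold change -3.16, standard error 0.44, FDR = 0.000464, edgeR with Benjamini-Hochberg adjustment). Its NUT was scarce, with 25, 18, 6 and 13 counts in WT against 52, 31, 48 and 34 in *rrp6Δ* (log2 fold change 0.87). Upstream of *GYP5* on the same strand, *GAL4*, the activator of galactose genes, was also called down (log2 fold change -1.15), a neighbour named after its value was seen.

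*PRM9*, a pheromone-regulated membrane protein gene, had 6.94, 8.05, 7.70 and 11.8 normalized counts in WT and 1.28, 0.728, 2.42 and 1.63 in *rrp6Δ* (log2 fold change -2.49, standard error 0.37). Its NUT was not called (log2 fold change 0.34). It has a close paralog, *PRM8*, and reads of the pair may have been shared. *OYE3*, an NADPH oxidoreductase with the paralog *OYE2*, had 4.99, 4.90, 5.03 and 23.1 normalized counts in WT and 2.07, 1.87, 1.51 and 4.50 in *rrp6Δ*. The fall of -1.93 on the log2 scale leaned on WT library 4, without which it was -0.94 (edgeR FDR = 0.0907). *DIT1*, which makes the dityrosine precursor of the spore wall, was scarce in both strains, with 20, 16, 9 and 14 counts in WT against 12, 4, 7 and 3 in *rrp6Δ*. Its log2 fold change was -1.77 with a standard error of 0.40.

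*ANB1*, the eIF5A gene expressed in low oxygen, had 9.81, 6.03, 10.7 and 6.85 normalized counts in WT and 4.58, 1.97, 3.93 and 1.63 in *rrp6Δ* (log2 fold change -1.44, standard error 0.37). It is nearly identical to its paralog *HYP2*, which makes its counts uncertain. *SIM1*, a cell wall protein of the SUN family, had 44.5, 87.4, 58.5 and 129.6 normalized counts in WT and 36.2, 22.4, 28.5 and 33.4 in *rrp6Δ* (log2 fold change -1.40, standard error 0.31). The NUTs over *ANB1* and *SIM1* both rose, with log2 fold changes of 1.80 and 1.24. YKL102C, an ORF-T of unknown function that overlaps another ORF-T on its strand, had 12, 8, 11 and 19 counts in WT against 3, 5, 7 and 8 in *rrp6Δ* (log2 fold change -1.67). It was no longer called without WT library 4 (log2 fold change -1.23) or without *rrp6Δ* library 1 (-1.31).

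The 5 largest rises were mostly of scarce ORF-Ts of unknown function. YGR121W-A had 4, 6, 2 and 1 counts in WT against 42, 26, 31 and 27 in *rrp6Δ* (log2 fold change 2.68, standard error 0.43). It overlaps another NUT on its own strand. YFR035C had 3, 4, 3 and 2 counts in WT against 28, 18, 29 and 14 in *rrp6Δ* (log2 fold change 2.26, standard error 0.42). Both stood clear of WT in each library. YRO2, a membrane protein related to *MRH1*, was the abundant exception, with 54.3, 29.2, 86.8 and 98.6 normalized counts in WT and 178, 154, 459 and 272 in *rrp6Δ*. Its NUT rose as well (log2 fold changes 1.98 for the ORF-T and 1.25 for the NUT). YOL097W-A, described above, rose by 1.34 on the log2 scale, and YOR186W by 1.04, the latter no longer called without WT library 2 or 3 or *rrp6Δ* library 2 or 3.

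Strong rises of a NUT also occurred over ORF-Ts that were not called. *PDR17*, a phosphatidylinositol transfer protein, had 19.4, 8.67, 17.9 and 13.6 normalized counts in WT and 11.5, 5.20, 14.1 and 9.38 in *rrp6Δ*, while its NUT went from 1, 5, 0 and 0 counts to 42, 27, 56 and 31. The strains overlapped for the ORF-T (log2 fold change -0.56), although the blocked fit, with the replicate number as a term, called it down (edgeR FDR = 0.0134), as did the fit without WT library 2 (log2 fold change -0.75, edgeR FDR = 0.0983). *VFA1*, which interacts with the endosomal ATPase Vps4, had 0.931, 1.51, 3.41 and 1.28 normalized counts in WT and 1.65, 1.46, 0.982 and 1.34 in *rrp6Δ*, under a NUT with a log2 fold change of 4.02. That NUT had 2, 5, 2 and 2 counts in WT against 86, 50, 84 and 59 in *rrp6Δ*. WT and *rrp6Δ* libraries of *VFA1* overlapped throughout. *SPS18*, a sporulation gene, and YNL205C, which overlaps it, share a NUT with a log2 fold change of 3.68 and had log2 fold changes of 0.28 and -0.22. The shared NUT had 5, 2, 0 and 1 counts in WT against 35, 39, 44 and 31 in *rrp6Δ*. *MSC1*, a gene linked to meiotic recombination, was abundant, with 141, 244, 134 and 402 normalized counts in WT and 120.4, 336, 154 and 444 in *rrp6Δ* under a NUT with a log2 fold change of 3.47. The NUT of *MSC1* had 7, 8, 2 and 3 counts in WT against 88, 63, 102 and 74 in *rrp6Δ*. All of these NUTs were near the floor in WT, so their fold changes rest on few WT reads. The direction of YNL205C and *VFA1* turned with library totals, that of *VFA1* also without WT library 3, and that of *MSC1* without *rrp6Δ* library 4.

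Genes of meiosis and sporulation, which are kept off in growing haploid cells, were looked at as a list. Of 36 listed, 25 were in the table and 6 of these fell and 2 rose (5 and 4 by DESeq2), where 14.3% of all ORF-Ts fell and 2.09% rose, with a median log2 fold change of -0.43 against -0.32 over all ORF-Ts. Their 5′ end was crossed in 7, of which *DIT1* fell. The rises included *REC104*, which overlaps the ET of *SNR71* as described above. The ORF-T listed for *MEK1*, a meiotic checkpoint kinase, is only 285 bases long and overlaps another ORF-T on its strand. Its counts and its crossed 5′ end may therefore not represent the gene. It had 1.78, 2.01, 1.92 and 2.14 normalized counts in WT and 1.22, 1.14, 1.28 and 1.24 in *rrp6Δ*. The strains did not overlap for it, but the fold change was not called (log2 fold change -0.67, FDR = 0.121, edgeR with Benjamini-Hochberg adjustment). *ZIP1*, a structural protein of the synaptonemal complex, had a log2 fold change of -0.64, *ZIP2*, needed for chromosome synapsis, -0.73, and *MEI4*, needed for meiotic double-strand breaks, -0.43. *MSH5*, which acts in meiotic crossing over, had 0.36. None of these was called here, and their standard errors lay between 0.28 and 0.38. With the replicate block and TMM from ORF-Ts only, *MSH5* was called up (log2 fold change 0.65, edgeR FDR = 0.0360).

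Of 16 genes known for regulation by antisense or interfering noncoding transcription, 12 were in the table, 2 of which fell and 0 rose, also by DESeq2 (at an unadjusted edgeR p under 0.05, 4 were lower and 0 higher). Their median log2 fold change was -0.42, against -0.32 over all ORF-Ts, of which 14.3% fell and 2.09% rose. The 5′ end was crossed in *PHO5*, *ZIP2*, *FMP40* and *GAL1*. *PHO5* (YBR093C, chrII:429492-430986, minus strand), the repressible acid phosphatase, had 13.6, 27.3, 43.5 and 10.7 normalized counts in WT and 11.5, 9.67, 10.3 and 6.22 in *rrp6Δ*. It was called down (log2 fold change -1.33, standard error 0.40, FDR = 0.0244, edgeR with Benjamini-Hochberg adjustment), with a wide WT range and an overlap of WT library 4 with 1 *rrp6Δ* library. Its two-sided exact permutation test gave p = 0.0571, where the smallest p of 4 against 4 libraries is 0.0286. With library totals alone it was not called (log2 fold change -0.84), and it is close in sequence to the neighbouring *PHO3*. Its NUT rose from 226, 80, 132 and 45 counts in WT to 663, 232, 656 and 314 in *rrp6Δ*. *GAL1*, galactokinase, had 67, 89, 25 and 54 counts in WT against 96, 87, 61 and 53 in *rrp6Δ*, and the direction of its log2 fold change of -0.21 turned with the scaling.

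Of 22 genes for NNS termination, the TRAMP polyadenylation complex and the nuclear exosome, all were in the table. *RRP6*, the deleted gene, fell and *NRD1*, named here after its value was seen, rose, where 14.3% of all ORF-Ts fell and 2.09% rose. DESeq2 called 1 down and 1 up. At an unadjusted edgeR p under 0.05, 1 was lower and 2 were higher. The median log2 fold change was -0.15, against -0.32 over all ORF-Ts. Of the 22 genes, 2 had a crossed 5′ end. *SSU72*, a phosphatase of the RNA polymerase II tail, had 8.54, 9.55, 10.7 and 7.28 normalized counts in WT and 11.8, 10.6, 17.8 and 12.4 in *rrp6Δ*. Only WT library 3 and *rrp6Δ* library 2 touched (log2 fold change 0.55, edgeR FDR = 0.112), and with TMM from ORF-Ts only it was called up (log2 fold change 0.86, edgeR FDR = 0.0199), as it was without *rrp6Δ* library 2 (0.64, edgeR FDR = 0.0988). It was also called up with library totals (0.92, edgeR FDR = 0.0227) and with at least 10 counts in every library (0.77, edgeR FDR = 0.0759). *TRF5*, a noncanonical poly(A) polymerase of TRAMP, had 43.8, 26.2, 32.3 and 15.6 normalized counts in WT and 34.7, 35.0, 24.1 and 16.5 in *rrp6Δ*, with the strains interleaved. Its log2 fold change of -0.10 turned to 0.23 with TMM from ORF-Ts only.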

How the data were processed

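Single 75-base reads that keep the strand came from a SOLiD sequencer. The authors aligned them with bfast to sacCer3, and bamutils counted reads for every annotated transcript. The mapping behind the table is not named among the pair of pipelines described. The authors deposited raw counts, which were analysed here, and a normalized signal per library (counts over an effective library size from edgeR), which was not used. The deposited log2 fold changes, p-values and FDR of their own comparison were not used either. Annotations overlap, so 1 read can count on several transcripts. Members and gene lists were chosen with earlier results of these data known.

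Counts were fitted in R 4.3.3 with edgeR 4.0.16 (TMM, glmQLFit, glmQLFTest, no filter, no covariate) over all 10054 transcripts, with Benjamini-Hochberg adjusted p-values. The thresholds are those of the study's methods. Standard errors are the size of the log2 fold change over the square root of F. Groups were taken from the sample labels. P-values measure the spread between the 4 libraries of each strain. Libraries held 6904004 to 12666126 counts, and 3 counts correspond to 0.183 to 0.444 normalized counts. Of the 889 ORF-Ts, 865 matched RefSeq by locus tag, 788 of all 889 carried a gene name, and 3 had more than 1 crossing NUT. Those were placed by the NUT that starts farthest away. Named ORF-Ts were those the study discusses beside a crossing transcript, the 10 largest falls and 5 largest rises called without overlap of the libraries, the 5 uncalled under the largest NUT rises, those on the 3 gene lists, and the 8 under an ET.

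The replicate numbers appeared to pair the libraries, since deviations from the strain means correlated between 0.330 and 0.520 in the 4 pairs that share a number and between -0.350 and 0.012 in other pairs. The alternatives were the replicate block, TMM from ORF-Ts only, both together, library totals alone, filterByExpr, at least 10 counts in every library, an FDR of 0.05, DESeq2 1.42.0, each library left out, and narrower definitions of the crossed ORF-Ts. Leaving out ribosomal protein transcripts and keeping only NUTs free of same-strand ORF-Ts and sn/snoRNAs were added after seeing the data. On simulated data in this comparison with 10054 transcripts, 49 of 111 changes of 1 and 85 of 89 changes of 2 on the log2 scale were recovered, and 21 unchanged transcripts were called. The simulation gave all transcripts the same dispersion and drew the libraries independently, so these rates need not hold for the real libraries. Sequences and tables were handled in Python 3.11.15 with pandas 2.3.3 and numpy 2.4.6.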

Additional observations from a re-analysis of the deposited data

Results flagged for a closer look

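In 3 of 70 groups of 4 libraries, 1 library stood far from the others of its strain, where chance gives about 3.5. *EFM3* had 1.72 normalized counts in *rrp6Δ* library 4 and between 0.831 and 0.982 in the others. *OYE3* had 23.1 in WT library 4 and between 4.90 and 5.03 in the others. *ZIP2* had 2.77 in WT library 2 and between 1.33 and 1.52 in the others.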

How the results depend on the processing

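The crossed ORF-Ts called down numbered 222 with the replicate block, 32 with TMM from ORF-Ts only, 65 with the replicate block and that TMM, 20 with library totals, 25 with at least 10 counts in every library and 105 at an FDR of 0.05. They numbered between 87 and 175 with each library left out, lowest without *rrp6Δ* library 1 and 98 without WT library 4. Those called up numbered 11 with the replicate block, 23 with TMM from ORF-Ts only, 34 with both and 19 with library totals. They numbered 4 without ORF-Ts that overlap another transcript on their strand, 2 under NUTs free of same-strand ORF-Ts and sn/snoRNAs (both definitions test fewer ORF-Ts), and between 6 and 15 with each library left out, highest without WT library 4. With each library left out, the median of crossed ORF-Ts minus that of ORF-Ts with a NUT elsewhere lay between -0.098 and -0.062, and minus that of ORF-Ts without one between -0.094 and -0.055. Crossing NUTs called up numbered 164 with at least 10 counts in every library, where fewer transcripts were tested, and between 476 and 554 with each library left out. The other causes were not tested.

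Of 19 named ORF-Ts that were called, 15 kept their call in every alternative that gave a value, and no called one turned direction. The replicate block alone changed the call of *PDR17* and of no other named ORF-T. Together with TMM from ORF-Ts only it called *MSH5* (0.65) and *SSU72* (0.85) up. In that setting *PDR17* was not called (-0.27), and YMR194C-A lost its call (-0.86). Among those not called, log2 fold changes turned direction as follows. With TMM from ORF-Ts only they were 0.10 for YNL205C, 0.12 for *GAL1*, 0.23 for *TRF5* and 0.16 for *STE23*. With the replicate block and that TMM they were 0.053 for *VFA1*, 0.10 for YNL205C, 0.17 for *GAL1*, 0.24 for *TRF5* and 0.14 for *STE23*. With library totals they were 0.093 for *VFA1*, 0.17 for YNL205C, 0.17 for *GAL1*, 0.29 for *TRF5* and 0.19 for *STE23*. With at least 10 counts in every library they were 0.0054 for YNL205C, 0.019 for *GAL1*, 0.13 for *TRF5* and 0.063 for *STE23*. With each library left out they ranged from -0.55 to 0.15 for *VFA1* (highest without WT 3), from -0.14 to 0.70 for *MSC1* (lowest without *rrp6Δ* 4), from -0.45 to 0.10 for *GAL1* (highest without WT 2) and from -0.24 to 0.21 for *TRF5* (highest without WT 1, 0.14 without *rrp6Δ* 4). Depth limits scarce ORF-Ts such as *DIT1* and YFR035C, with under 30 counts in every library.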
